A study of Mus musculus with 4 samples.

Results

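The matrix metalloproteinase (MMP), ADAM, ADAMTS and TIMP genes were followed in mouse embryo fibroblasts (MEFs) that lack stathmin, a protein that destabilizes microtubules. Members were all probes whose gene name in the array files begins with Mmp, Adam, Adamts or Adamtsl and a number, or is Timp1 to Timp4. This rule uses names and no measured value, and it found 75 of the 27962 gene names, with 130 of the 41174 probes on each array. They were 21 MMP, 28 ADAM, 17 ADAMTS and 5 ADAMTSL (ADAMTS-like) genes and the 4 TIMP genes. STMN1-/- MEFs were compared with STMN1+/+ MEFs on 4 Agilent 2-color arrays, each of which held RNA of both genotypes, to find transcripts that differ when both copies of STMN1 are disrupted. The dyes were swapped, so that STMN1-/- RNA carried Cy3 on replicates 1 and 2 but Cy5 on the other pair. Both groups were untreated C57BL/6 fibroblasts grown in culture from individual mid-gestation embryos of STMN1+/- matings, with the null allele carrying a neomycin cassette in STMN1. The embryo or RNA extract behind each array is not stated, so the p-values below measure the spread between these arrays, which may be technical.

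Matrix metalloproteinases are zinc enzymes that cut collagens, gelatin, laminin and other matrix proteins outside the cell, and most are made as inactive proenzymes. ADAMs are membrane proteins, many of which release the outer part of growth factors, cytokine receptors and Notch from the cell surface, while ADAMTS enzymes are secreted and process procollagens and large proteoglycans. ADAMTSL proteins share the accessory domains of ADAMTS enzymes but have no protease domain. TIMPs are the tissue inhibitors that block these enzymes, and fibroblasts are a main source of both.

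Signals are the processed spot intensities of the scanner software, in arbitrary units, and compare genotypes for 1 probe but not 1 gene with another. Across the arrays, 24808 to 25916 probes were well above background in the STMN1-/- channel and 25122 to 26029 in the STMN1+/+ channel, and no spot was saturated. Log2 ratios of STMN1-/- over STMN1+/+ correlated across all kept probes at r = 0.69 and 0.70 for the 2 pairs of arrays with equal dye orientation and at 0.44 to 0.49 for pairs with the dyes swapped. Both Stmn1 probes were lower in STMN1-/- MEFs on 4 of 4 arrays, with log2 ratios of -2.16 and -0.39 (limma adjusted p = 0.000602 and 0.0181). The study calls the array's STMN1 probe design flawed, because it also matches another region of the genome. It reports that qRT-PCR and western blots found no STMN1 mRNA or protein in these cells. All 7 fibroblast markers were above background in both genotypes, and 6 of them, among them Col1a1 (log2 ratio 1.28) and Col3a1 (1.23), were higher in STMN1-/- MEFs and Vim was lower. The summed signal of these markers ranged between 3179550 and 4186090 in STMN1-/- and between 1778670 and 2150560 in STMN1+/+ channels. Of 6 epithelial markers, 5 were measured and all 5 were lower in STMN1-/- MEFs, with summed signals of 46237 to 53191 in STMN1-/- and 60468 to 67972 in STMN1+/+ channels. Cdh1, the epithelial cadherin, was not well above background in STMN1-/- on any array and was 10.6-fold lower there by its measured signals. Of 6 macrophage markers 1 was higher, 1 was lower and Itgam was at background, with summed signals of 124615 to 145748 in STMN1-/- and 148766 to 170427 in STMN1+/+. Of 4 endothelial markers Pecam1 and Cdh5 were at background in both genotypes and Kdr was lower, with summed signals of 1148 to 1370.3 in STMN1-/- and 1673 to 2015 in STMN1+/+. Fewer cells of a type and less RNA per cell cannot be told apart in these bulk samples, and the part of these markers in the protease results was not tested.

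The measurements rest on 60-base oligonucleotides, and 4 of them are shown: those of Adamts16, Adamts15 and Mmp19, the ADAMTS and MMP genes with the highest ratios, and that of Mmp3, the lower MMP gene with the largest difference. Positions and strands are those in the array files, on mouse build mm7.
Adamts15 probe, chr9:30800473-30800532, minus strand: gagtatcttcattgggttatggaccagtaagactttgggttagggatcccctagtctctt
Adamts16 probe, chr13:67657286-67657345, minus strand: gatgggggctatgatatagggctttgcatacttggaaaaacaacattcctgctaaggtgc
Mmp19 probe, chr10:128300933-128300992, plus strand: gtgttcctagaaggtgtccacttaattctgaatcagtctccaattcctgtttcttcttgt
Mmp3 probe, chr9:7453874-7453933, plus strand: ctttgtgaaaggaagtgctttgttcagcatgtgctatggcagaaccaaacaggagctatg

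For Adamts2, 3 probes are shown in their order along the plus strand of chromosome 11 because the size of its ratio differed among them.
Adamts2 probe 1, chr11:50733443-50733502: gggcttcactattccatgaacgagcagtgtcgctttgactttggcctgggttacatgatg
Adamts2 probe 2, chr11:50754733-50754792: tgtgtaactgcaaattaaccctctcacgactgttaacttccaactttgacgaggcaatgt
Adamts2 probe 3, chr11:50760727-50760786: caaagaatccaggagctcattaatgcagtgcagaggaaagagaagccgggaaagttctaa

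The 2 probes of Mmp16, both on the plus strand of chromosome 4, are shown because their ratios had opposite signs. The first is split in the genome, so its coordinates enclose more than 60 bases.
Mmp16 probe 1, chr4:18020571-18037589: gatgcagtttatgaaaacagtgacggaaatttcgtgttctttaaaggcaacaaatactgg
Mmp16 probe 2, chr4:18044344-18044403: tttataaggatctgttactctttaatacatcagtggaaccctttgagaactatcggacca

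Each gene was represented by its brightest tested probe, and 60 of the 75 genes had one. In STMN1-/- MEFs 19 of these genes were higher, 5 were lower and 36 did not pass limma's test at an adjusted p under 0.05. Over all 18761 gene names with a tested probe the same rule called 12.3% higher and 11.6% lower, against 31.7% and 8.33% of the measured members. The median log2 ratio of the measured members was 0.19, against -0.002 over all tested probes. Of all 130 member probes 89 were tested, and 27 were higher and 7 lower, where 11.2% of all tested probes were higher and 11.2% lower. The 24 called genes had the same sign on every array, and for 22 of them the ranges of the signals in STMN1-/- and STMN1+/+ channels did not overlap, with Adam11 and Adamts6 as the exceptions. A call asks for an even ratio over the arrays, so both counts largely follow from it. The share over all called probes was not computed. A difference of 2-fold or more was reached by 8 of the higher genes and by none of the 5 lower genes, whose fold differences were 1.23 to 1.55. Members that did not pass had log2 ratios of -0.73 to 0.54, and 21 of these 36 were positive and 15 negative.

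**Figure D1:**
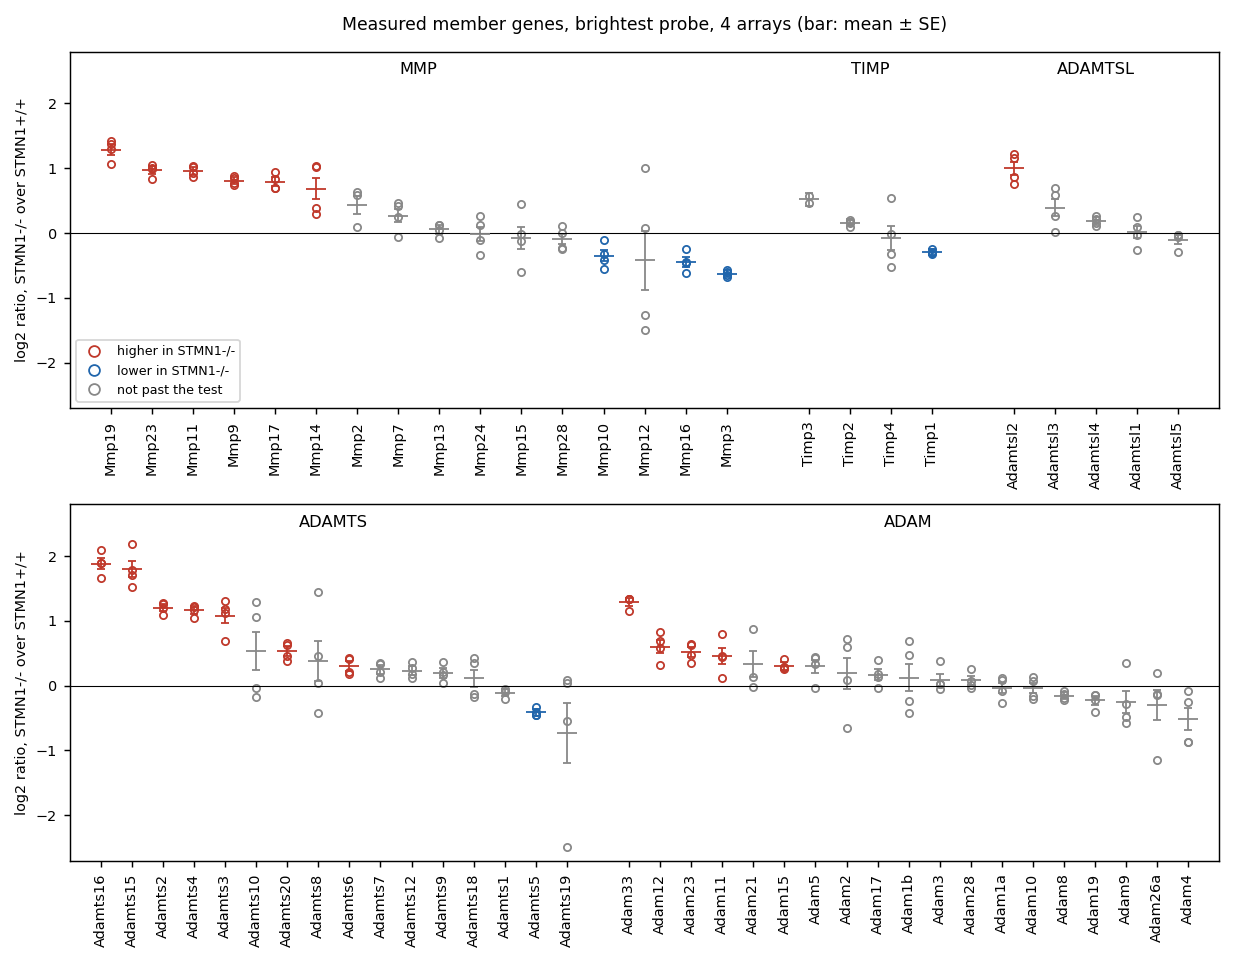
Log2 ratio of STMN1-/- over STMN1+/+ MEFs (vertical axis) for the 60 measured member genes, grouped by class. Each open circle is 1 array and each bar the mean ± SE from limma; the 19 higher genes lie mostly among ADAMTS and MMP genes, and the 5 lower ones are Mmp3, Mmp10, Mmp16, Adamts5 and Timp1.

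Among the ADAMTS genes 7 of 16 measured were higher in STMN1-/- MEFs and 1 was lower. The 2 measured procollagen N-proteinases, Adamts2 and Adamts3, which trim the amino end of fibrillar procollagens, were among the higher ones. Adamts2, the main enzyme of this kind for type I procollagen, gave signals of 89483, 90649, 99088 and 89435 in STMN1-/- and 39104, 37420.2, 41573 and 41811 in STMN1+/+ on replicates 1 to 4. Every STMN1-/- value lay more than 2-fold above its STMN1+/+ partner, and the log2 ratio was 1.21 (SE 0.06, limma adjusted p = 0.000817, n = 4 arrays). Adamts3, a relative that also processes the lymphatic growth factor VEGF-C, was dim, with 232, 237, 304 and 254 in STMN1-/- and 107, 147, 122 and 112 in STMN1+/+. Its groups did not overlap, but the STMN1+/+ channel was well above background on 1 array alone, and the log2 ratio was 1.08 (SE 0.12, limma adjusted p = 0.00501). The other Adamts3 probes were not well above background in either genotype on any array.

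The hyalectanases are ADAMTS enzymes that cut aggrecan, versican and related proteoglycans, and of their 7 genes 3 were higher, 1 was lower and 3 did not pass. Adamts15 gave 1217, 1208, 904 and 1126 in STMN1-/- and 354, 266, 276 and 391 in STMN1+/+, with no overlap and array folds of 2.88 to 4.54. Its log2 ratio of 1.80 (SE 0.12, limma adjusted p = 0.00142) was exceeded among the members by Adamts16 alone. Adamts4, an aggrecanase, gave 3171, 3462, 3133 and 3451 in STMN1-/- and 1350.1, 1679, 1390.0 and 1486 in STMN1+/+. These groups were also apart, with a log2 ratio of 1.17 (SE 0.06, limma adjusted p = 0.000881). Adamts20, which is needed in mice for the spread of pigment cells in the skin, was at 275 to 351 in STMN1-/- and 184 to 221 in STMN1+/+, with a log2 ratio of 0.53 (SE 0.07, limma adjusted p = 0.00973). The other Adamts20 probes were not well above background in either genotype on any array.

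Adamts5, the other major aggrecanase, ran the other way from Adamts4. Its signals were 14394, 16434, 15756 and 17868 in STMN1-/- and 19784, 22448, 20806 and 22553 in STMN1+/+. The groups did not overlap and the log2 ratio was -0.41 (SE 0.06, limma adjusted p = 0.00905). Its second probe was also lower, at -0.49 (SE 0.11, limma adjusted p = 0.0378). In the study's own PCR measurements, however, Adamts5 was higher in STMN1-/- MEFs, opposite to the arrays, so its direction is not settled. Adamts1, whose probe lies 67.64 kb from that of Adamts5 on chromosome 16 of mm7, gave 57765 to 67836 in STMN1-/- and 60841 to 72419 in STMN1+/+ and did not pass (log2 ratio -0.11, SE 0.06, limma adjusted p = 0.242). By PCR the study lists Adamts1 as lower in STMN1-/- MEFs. The Adamts8 probe lies 61.72 kb from that of Adamts15 on chromosome 9, and its values overlapped, at 161 to 190.1 in STMN1-/- and 69.6 to 226 in STMN1+/+ (log2 ratio 0.38, limma adjusted p = 0.427). Adamts9 had 3 tested probes of mixed sign, none past the test, with log2 ratios of -0.12 to 0.34.

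Outside these groups Adamts16, a secreted protease reported to cut fibronectin, had the largest ratio of all measured members. It gave 485, 524, 523 and 497 in STMN1-/- and 130.4, 166, 123 and 134 in STMN1+/+, where it was well above background on 1 array. The groups were more than 3-fold apart on each array, and the log2 ratio was 1.88 (SE 0.08, limma adjusted p = 0.0008). Adamts6 was also higher, by a small margin and with overlapping ranges of 1208 to 1930.3 in STMN1-/- and 1071 to 1432 in STMN1+/+ (log2 ratio 0.31, SE 0.07, limma adjusted p = 0.0402). Leaving out any 1 of the 4 arrays took Adamts6 out of the calls, with limma adjusted p of 0.0739 to 0.134. Among the 5 ADAMTSL genes 1 was higher: Adamtsl2, which binds fibrillin microfibrils, gave 250.5, 337, 274 and 412 in STMN1-/- and 138, 145, 161 and 184 in STMN1+/+, with a log2 ratio of 1.00 (SE 0.10, limma adjusted p = 0.00399).

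The ratios of several of these genes depended on how background and dye were corrected. Changing both at once, by replacing the processed signals by normexp-corrected, loess-normalized ones, gave log2 ratios of 0.46 for Adamts16 (limma adjusted p = 0.0633), 0.22 for Adamts3 (0.131), 0.21 for Adamtsl2 (0.113), 0.13 for Adamts20 (0.164) and 0.22 for Adamts6 (0.107). Adamts15 stayed past the test at a smaller log2 ratio of 0.64 (limma adjusted p = 0.0482), as did Adamts4 at 0.67 (limma adjusted p = 0.0437), while Adamts2 was at 1.23 (limma adjusted p = 0.00134).

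**Figure D2:**
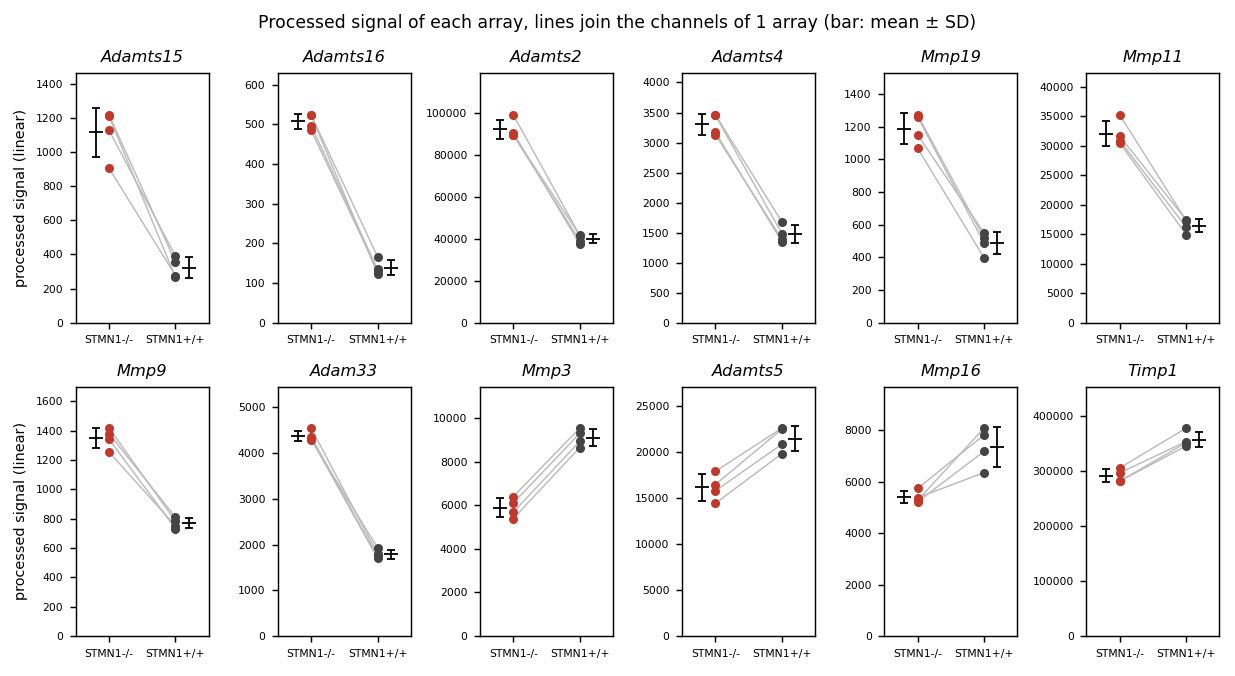
Processed signal (linear, arbitrary units) of 12 member genes in STMN1-/- (left) and STMN1+/+ (right) channels, with lines joining the channels of 1 array and bars for the mean ± SD over 4 arrays. In the 8 higher genes, Adamts15 to Adam33, every STMN1-/- value lies above every STMN1+/+ value, and in the 4 lower genes, Mmp3, Adamts5, Mmp16 and Timp1, every one lies below.

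Among 16 measured MMP genes 6 were higher in STMN1-/- MEFs and 3 were lower. The higher ones included a gelatinase, Mmp9, and 2 membrane-type enzymes, Mmp14 and Mmp17, while both stromelysins, Mmp3 and Mmp10, were lower. Mmp19, which cuts basement membrane proteins, gave 1272, 1150.0, 1068 and 1260.1 in STMN1-/- and 520.0, 549, 397 and 488 in STMN1+/+. No values overlapped, and the log2 ratio was 1.29 (SE 0.08, limma adjusted p = 0.00128). Mmp11, also known as stromelysin 3 and active mainly on serpins rather than on the matrix itself, gave 30885, 31633, 30491 and 35244 in STMN1-/- and 16209.7, 17436, 14944 and 17326 in STMN1+/+. Its log2 ratio was 0.96 (SE 0.06, limma adjusted p = 0.0013), with a fold between 1.81 and 2.04 on each array. Mmp23, an MMP held in the membrane by its amino end, was at 11723 to 15055 in STMN1-/- and 5837 to 7611 in STMN1+/+, with a log2 ratio of 0.97 (SE 0.06, limma adjusted p = 0.0014).

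Gelatinases cut denatured collagen and type IV collagen. Mmp9 gave 1255, 1380.4, 1342 and 1417 in STMN1-/- and 751, 810.3, 732 and 784 in STMN1+/+, well apart, with a log2 ratio of 0.81 (SE 0.06, limma adjusted p = 0.00172), and its other probe gave 0.78. Mmp2, the other gelatinase, gave 31215, 33339 and 23909 in STMN1-/- and 20173, 22236 and 22459 in STMN1+/+ on replicates 1 to 3, its spot on replicate 4 being an outlier. The groups did not overlap, but the ratio on replicate 3 was small and the test did not pass (log2 ratio 0.43, SE 0.14, limma adjusted p = 0.100). With the dye as a second coefficient it did, at a log2 ratio of 0.35 (limma adjusted p = 0.0263).

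Membrane-type MMPs sit on the cell surface, and of their 6 genes 2 were higher, 1 was lower, 2 did not pass and 1 was at background. Mmp14, which cuts collagen around the cell and activates the proenzyme of Mmp2, gave 16366, 17359, 13114 and 16037 in STMN1-/- and 8087, 8452, 10739.8 and 12323 in STMN1+/+. The groups did not overlap, but its ratio was larger on replicates 1 and 2 (log2 1.02 and 1.04), where STMN1-/- RNA carried Cy3, than on replicates 3 and 4 (0.29 and 0.38). The mean log2 ratio was 0.68 (SE 0.16, limma adjusted p = 0.0406), and without any 1 of the arrays the test did not pass (limma adjusted p = 0.0547 to 0.121). The study itself lists Mmp14 as lower on its arrays, unlike the ratio here, and as higher by PCR. Mmp17, anchored by a lipid tail, was steadier, at 7086 to 8707 in STMN1-/- and 4374 to 4693 in STMN1+/+ (log2 ratio 0.79, SE 0.07, limma adjusted p = 0.0027), and its second probe was higher too, at 0.94. Mmp16, measured by its brighter probe, gave 5210.4, 5267, 5731 and 5369.8 in STMN1-/- and 7172, 8073, 7803 and 6347 in STMN1+/+. The groups were apart, with a log2 ratio of -0.44 (SE 0.08, limma adjusted p = 0.0183). Its other, dim probe gave 54.6 to 95.9 in STMN1-/- and 42.2 to 121 in STMN1+/+, overlapping, with a log2 ratio of 0.22 (limma adjusted p = 0.399). Leaving out replicate 1, 2 or 3 took Mmp16 out of the calls (limma adjusted p = 0.0696, 0.0678 and 0.0716).

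Stromelysins have a broad range of matrix substrates and activate other proenzymes. Mmp3 gave 5685, 5387, 6102 and 6396 in STMN1-/- and 8926, 8648, 9300.4 and 9539.6 in STMN1+/+. Every STMN1-/- value lay below every STMN1+/+ value, with array folds of 1.49 to 1.61 and a log2 ratio of -0.63 (SE 0.05, limma adjusted p = 0.00275). Mmp10 gave 1708, 1633, 1644 and 1882 in STMN1-/- and 2268, 2394, 2067 and 2026 in STMN1+/+. The groups did not overlap, but the margin on replicate 4 was narrow, and the log2 ratio of -0.35 (SE 0.09, limma adjusted p = 0.0465) did not pass without any 1 of the arrays (limma adjusted p = 0.0526 to 0.138). Collagenases cut native fibrillar collagen. Mmp13 was the only collagenase of 3 above background, at 1126 to 1373 in STMN1-/- and 1053 to 1451 in STMN1+/+, and it did not pass (log2 ratio 0.06, limma adjusted p = 0.58).

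With normexp correction and loess, Mmp19, Mmp9, Mmp14 and Mmp10 no longer passed. Their log2 ratios were then 0.62 for Mmp19 (limma adjusted p = 0.0544), 0.43 for Mmp9 (0.0618), 0.47 for Mmp14 (0.143) and -0.23 for Mmp10 (0.0688).

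Mmp3 and Mmp10 belong to a cluster of MMP genes on chromosome 9, of which 8 were members here. On mm7 these run in the order Mmp13, Mmp12, Mmp3, Mmp1a, Mmp10, Mmp8, Mmp20 and Mmp7. Mmp1a, which was at background, lies between the probes of Mmp3 and Mmp10, at 20.81 kb from the first and 33.45 kb from the second. Mmp8 and Mmp20 were at background as well. Of the others, Mmp13, Mmp12 and Mmp7 did not pass, so the 2 lower member genes of the cluster were the stromelysins and no member gene of it was higher.

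Promoter sequence from RefSeq (GRCm38.p6) was matched for 44 of the 75 genes, and the 250 bases before each start were searched on both strands. TGANTCA, the letters bound by AP-1 factors, were found in 10 of 44 member promoters (22.7%), against 7.82% of all 27025 promoters. TATAAA was found in 22.7% of members and 14.3% of all, and GGGCGG in 52.3% of members and 35.4% of all. Both TGANTCA and TATAAA were in 7 member promoters (15.9%), against 1.45% of all, and 6 of the 7 were MMP genes. These 6 all belong to the chromosome 9 cluster, as does Mmp12, which held TGANTCA without TATAAA. The member shares of TGANTCA and of both motifs therefore draw largely on this cluster. Of 9 matched genes that were higher none held TGANTCA, which so few genes cannot set apart from the 7.82% of all promoters. Of 3 matched genes that were lower 2 held it, Mmp3 and Mmp10. Mmp13, which did not pass the test, held both motifs too, as did Mmp7, Mmp1a and Mmp20, so the letters were found in lower genes, in genes that did not pass and in genes at background alike. The 120 bases before the start of 3 of these genes, all on the plus strand, show how close the motifs lie, with TGANTCA and TATAAA in capitals.
Mmp3, chr9:7445702-7445821: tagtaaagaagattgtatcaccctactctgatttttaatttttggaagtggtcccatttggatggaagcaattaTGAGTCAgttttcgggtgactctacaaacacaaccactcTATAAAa
Mmp10, chr9:7502222-7502341: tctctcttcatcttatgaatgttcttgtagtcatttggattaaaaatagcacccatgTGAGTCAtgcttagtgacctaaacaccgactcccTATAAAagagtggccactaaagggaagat
Mmp13, chr9:7272394-7272513: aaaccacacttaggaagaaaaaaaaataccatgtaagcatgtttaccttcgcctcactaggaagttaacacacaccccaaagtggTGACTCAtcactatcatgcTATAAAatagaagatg

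Among 19 measured ADAM genes 5 were higher in STMN1-/- MEFs by limma and none was lower, while 6 were higher and 3 (Adam4, Adam8 and Adam19) lower at an unadjusted p under 0.05, and the methods' t-test after adjustment called 3 higher and 0 lower. All 5 belong to the 12 ADAMs of somatic tissues, of which 11 were measured, while the 16 ADAMs known mainly from germ cells had 8 measured and none past the test, with 1 higher (Adam5) and 1 lower (Adam4) at an unadjusted p under 0.05 and none by the methods' t-test. Of 5 testis markers, all above background, Ddx4 was lower and the other 4 did not pass, with summed signals of 3378 to 4277 in STMN1-/- and 4022 to 5141 in STMN1+/+, and their part in the ADAM signals was not tested. Adam33, an ADAM of mesenchymal cells that has been linked to asthma in humans, gave 4287, 4542, 4357 and 4310.1 in STMN1-/- and 1925, 1794, 1730.0 and 1697 in STMN1+/+. The groups were more than 2-fold apart on each array, and the log2 ratio was 1.29 (SE 0.06, limma adjusted p = 0.000806). Its other probes gave 1.07 (SE 0.11) and 0.75 (SE 0.11), both past the test, and with normexp correction and loess the brightest probe was at 0.80 (limma adjusted p = 0.0312).

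Adam12, or meltrin alpha, known from muscle and fat precursor cells, gave 834, 869.9, 618 and 948 in STMN1-/- and 473, 579, 497 and 588 in STMN1+/+. The ranges stayed apart, with a log2 ratio of 0.60 (SE 0.10, limma adjusted p = 0.014) that did not pass without replicate 2 (limma adjusted p = 0.0591) or replicate 4 (0.0622). Adam23 and Adam11, which lack protease activity and act in adhesion, had log2 ratios of 0.52 (SE 0.07, limma adjusted p = 0.0103) and 0.46 (SE 0.12, limma adjusted p = 0.0496). Adam23 signals were 4271 to 5318 in STMN1-/- and 3064 to 3582 in STMN1+/+, without overlap. Adam11 signals overlapped, at 618 to 1039 in STMN1-/- and 481 to 753 in STMN1+/+, and without replicate 1, 2 or 4 it did not pass (limma adjusted p = 0.132, 0.116 and 0.133). Adam15, a disintegrin that binds integrins, was higher by a small but even margin, at 36829 to 41149 in STMN1-/- and 29345 to 34126 in STMN1+/+ (log2 ratio 0.30, SE 0.06, limma adjusted p = 0.0214). Without any 1 of the arrays it did not pass (limma adjusted p = 0.0747 to 0.0806). With normexp correction and loess Adam12, Adam23, Adam11 and Adam15 all missed the threshold, with limma adjusted p of 0.0756, 0.0754, 0.134 and 0.0805.

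The major sheddases did not pass. Adam10, which starts the cleavage of Notch, gave 550.2 to 759 in STMN1-/- and 634 to 819 in STMN1+/+, overlapping (log2 ratio -0.04, SE 0.08, limma adjusted p = 0.775). Adam17, which releases TNF and EGF receptor ligands, gave 8428 to 10377 in STMN1-/- and 7162 to 9181 in STMN1+/+, also overlapping (log2 ratio 0.17, SE 0.08, limma adjusted p = 0.225). Adam9 was variable between arrays, with 72507 to 83840.1 in STMN1-/- and 65812 to 108093 in STMN1+/+ (log2 ratio -0.25, SE 0.17, limma adjusted p = 0.345).

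Of the 4 TIMP genes none was higher in STMN1-/- MEFs by limma and 1 was lower. At an unadjusted p under 0.05 Timp2 and Timp3 were higher, and the methods' t-test after adjustment called 1, Timp2. Timp1, a secreted inhibitor of most soluble MMPs, gave 305787, 296948, 281904 and 281718 in STMN1-/- and 378349, 353913, 345798 and 351873 in STMN1+/+. The groups were apart by an even margin, with array folds of 1.19 to 1.25 and a log2 ratio of -0.29 (SE 0.05, limma adjusted p = 0.0186). Its other probes gave -0.34 (limma adjusted p = 0.036, 3 arrays) and -0.16 (limma adjusted p = 0.098). Without any 1 of the arrays Timp1 did not pass, with limma adjusted p of 0.0704 to 0.0812.

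Timp2, the inhibitor that also takes part in activation of Mmp2 by Mmp14, gave 300544, 330475, 329433 and 335542 in STMN1-/- and 280507, 292663, 286960.0 and 300242 in STMN1+/+. Its values just cleared each other, and the log2 ratio of 0.16 (SE 0.05) did not pass (limma adjusted p = 0.0973), though it did with the dye as a second coefficient (limma adjusted p = 0.0396). Timp3, which stays bound to the matrix and also blocks Adam17 and aggrecanases, had usable spots on replicates 1 and 2 alone, at 201406 and 218317 in STMN1-/- and 146483 and 146218 in STMN1+/+. Both arrays have the same dye orientation, so genotype and dye cannot be told apart for its log2 ratio of 0.52 (limma adjusted p = 0.0527), and with outlier spots kept on all arrays the ratio was 0.29 (limma adjusted p = 0.137). It passed with normexp correction and loess, at 0.58 (limma adjusted p = 0.0349). Timp4 overlapped between the groups, at 236 to 442 in STMN1-/- and 239 to 376 in STMN1+/+ (log2 ratio -0.08, SE 0.19, limma adjusted p = 0.795).

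Class medians were set against the TIMPs within each array. The ADAMTS median log2 ratio was 0.19, 0.44, 0.35 and 0.39 on replicates 1 to 4, and it lay above the TIMP median by 0.29, 0.48, 0.36 and 0.23. The MMP median was 0.54, 0.26, 0.11 and -0.06, so its difference to the TIMP median was positive on 3 arrays and negative on replicate 4 (0.64, 0.30, 0.13 and -0.22). ADAM genes were above the TIMP median by 0.04 to 0.17 and ADAMTSL genes by 0.09 to 0.32, on 4 of 4 arrays each. Replicate means were 0.21 ± 0.25 for MMP, 0.12 ± 0.13 for ADAM, 0.34 ± 0.11 for ADAMTS and 0.18 ± 0.06 for ADAMTSL genes, against 0.001 ± 0.11 for TIMP genes (SD, n = 4 arrays). These medians are descriptions with no test, and the TIMP median rests on 4 genes, of which Timp3 was present on 2 arrays.

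**Figure D3:**
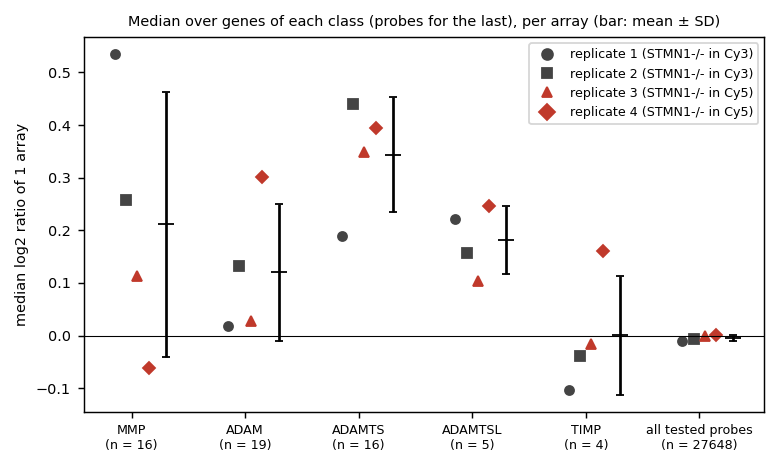
Median log2 ratio of STMN1-/- over STMN1+/+ MEFs (vertical axis) on each array, over the measured genes of each class and over all tested probes. Symbols mark the 4 replicates, with color for the dye that STMN1-/- RNA carried, and bars show the mean ± SD; ADAMTS medians lie above 0 on every array, whereas MMP medians range between -0.06 and 0.54.

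Probes of 1 gene could be compared with each other by their ratios. Of 19 genes with more than 1 tested probe, 16 had the same sign on all probes, and Adamts9, Adamtsl5 and Mmp16 did not. For Adamts2 the log2 ratio was 0.87 for probe 1, 0.71 for probe 2 and 1.21 for probe 3, all past the test. The ratio of probe 3 exceeded that of probe 2 on 4 of 4 arrays, by 0.28 to 0.68, which is more than the SE of either probe (0.06 and 0.08). For Adam33 the brightest probe exceeded the dimmest on 4 of 4 arrays, by 0.03 to 0.77, and so the gap was close to 0 on 1 array. All tested probes of Mmp9, Mmp17, Adam23 and Adamts5 were past the test, while for Adam12, Adam15, Adam11 and Timp1 some probes were not.

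**Figure D4:**
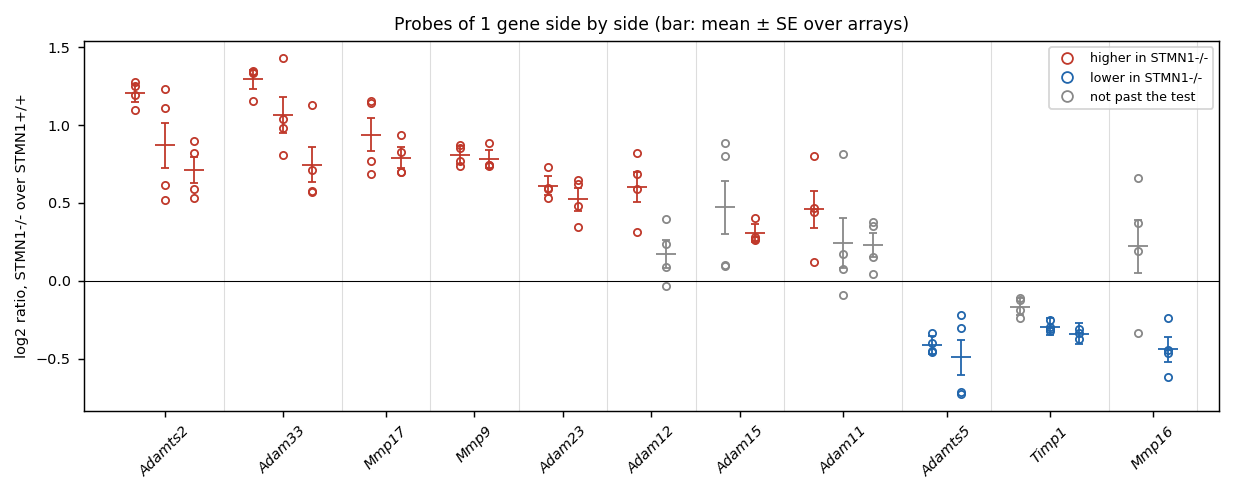
Log2 ratio of STMN1-/- over STMN1+/+ MEFs (vertical axis) for tested probes of 11 member genes, with open circles for single arrays and bars for the mean ± SE. The 3 plotted Adamts2 probes lie between 0.71 and 1.21 (not every Adamts2 probe is plotted), and the Mmp16 probes fall on opposite sides of 0.

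Another 15 member genes had no probe well above background in either genotype on any array, and their highest mean signals over the arrays were 26.3 to 92.8. They were 9 ADAMs (Adam6, Adam7, Adam18, Adam22, Adam24, Adam25, Adam29, Adam30 and Adam32), 5 MMPs (Mmp1a, Mmp8, Mmp20, Mmp21 and Mmp25) and Adamts13. Adamts19 was above background in STMN1+/+ on replicate 2 alone and in STMN1-/- on no array, and it did not pass the test (limma adjusted p = 0.321). Its log2 ratios were 0.04, -2.49, 0.09 and -0.54 on replicates 1 to 4, of both signs, so no fold is given.

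Genes that act on these enzymes or are cut by them moved in both directions. Among other inhibitors, Reck, a membrane-anchored inhibitor of Mmp9 and Mmp14, was higher (log2 ratio 0.50, limma adjusted p = 0.0176) and Tfpi2, a secreted serine protease inhibitor of the matrix, was lower (-0.69, limma adjusted p = 0.00752). Lrp1, the receptor that clears several of these enzymes, did not pass (0.45, limma adjusted p = 0.0992). Of 8 proprotein convertases, which remove the prodomain of ADAMs, ADAMTSs and membrane-type MMPs, 2 were higher, Pcsk5 (log2 ratio 1.09) and Mbtps1 (0.40), and 1 was lower, Pcsk6 (-0.64), while Furin was at 0.05 and did not pass. Among 8 measured partners of sheddases 2 were higher, Rhbdf1 (0.39), needed for the traffic of Adam17, and Tspan17 (0.28), a tetraspanin partner of Adam10.

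Substrates differed by gene as well. Bmp1, the C-proteinase of fibrillar procollagens, was higher (log2 ratio 0.60, limma adjusted p = 0.00865), and so were the procollagen genes Col1a1 and Col3a1 given above, while the related Tll1 was lower (-0.47). Among the 4 lecticans, which hyalectanases cut, Vcan was higher (0.23) and Acan (-0.41) and Ncan (-1.01) were lower. Of 9 measured ligands that ADAMs release 2 were higher, Cx3cl1 (0.50) and Dll1 (0.98), and 4 were lower, Hbegf (-0.64), Ereg (-0.87), Kitl (-0.52) and Areg. Areg was not well above background in STMN1-/- and was 2.47-fold lower there by its measured signals (limma adjusted p = 0.00526).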

How the data were processed

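Total RNA of STMN1-/- and STMN1+/+ MEFs was hybridised together on 4 arrays, and the authors scanned them with Agilent Feature Extraction 9.5.3.1. The deposited intensity values are its processed signals, after background subtraction and dye normalization within each array, with surrogate values for dim spots. The deposited log10 values are the Cy5 over Cy3 ratio of these signals, which served as an alternative. The authors' own gene lists hold ratios of selected probes and were not used.

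Each array's log2 ratio was turned by its dye labels to STMN1-/- over STMN1+/+. Of 45018 spots, 1639 controls and, per array, 472 to 711 outlier spots were left out, and spots of a probe were averaged. A probe was kept if 1 or more arrays had it well above background for at least 1 genotype, as 27759 of 41174 were. Those with 2 or more values (27648) entered an intercept-only limma fit (version 3.58.1, R 4.3.3; two-sided, Benjamini-Hochberg over all tested probes, threshold 0.05, n = 4). Fitted on simulated ratios of 26607 probes, with 50 probes changed at each fold, the test found 0% of 1.2-fold, 26% of 1.5-fold, 56% of 2-fold and 88% of 3-fold changes. Far fewer probes were changed there than the 22.4% called in the data. The adjustment was therefore stricter in the simulation, and these shares do not carry over to the data. The number of arrays limits the precision.

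The folds of Cdh1 and Areg, which were dim in STMN1-/- MEFs, compare channel means after Aquantile normalization. Raising dim values to the lowest signal well above background did not change either fold at the digits given. The mean STMN1-/- signals, 42.0 for Cdh1 and 112.7 for Areg, already lay above that level. Whether background limits the folds therefore cannot be told from this step. Both folds are open to dye bias only as far as the swap leaves any. Named are all called genes with 1 sign on every array, the TIMPs, the gelatinases, stromelysins, collagenase and major sheddases, members the study measured by PCR, and genes whose probes disagree; Adam4, Adam5, Adam8, Adam9, Adam19, Adamts8, Adamts9, Adamts19, Adamtsl5, the other MMPs of the chromosome 9 cluster and dim genes were added after their values were seen. Members and lists were chosen with earlier results of these data known. The values and sequence of 1 member probe are not reported here singly. All arrays share 1 slide and 1 scan. Alternatives were normexp with an offset of 50 and loess, the deposited ratio, centring, other filters, outlier spots kept, a dye coefficient, dye-swap pairs averaged, the methods' t-test, a gene's median probe and leaving out each array.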

Additional observations from a re-analysis of the deposited data

Results flagged for a closer look

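In 3 of 57 genes with values on all 4 arrays, 1 array stood apart from the others, where chance gives about 1 in 20. Each time it was replicate 1. The log2 ratio of Adam15 was 0.404 there and 0.265 to 0.281 on the other arrays, that of Adam33 was 1.15 there and 1.33 to 1.34 on the others, and that of Adamtsl5 was -0.293 there and -0.0626 to -0.0339 on the others.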

How the results depend on the processing

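Of the 24 called genes, Adamts2, Adamts4, Adamts5, Adamts15, Mmp3, Mmp11, Mmp17, Mmp23 and Adam33 kept their direction and stayed past the threshold under all 15 alternatives. With normexp correction and loess 8 member genes and 9 member probes were higher, and 7 of the 19 higher genes and 4 of the 5 lower genes were still called; the median log2 ratio was 0.18 for ADAMTS and 0.0385 for ADAMTSL genes, and the ratios of Mmp13 (-0.0277) and Timp4 (0.0209) changed sign. Without a filter on dim probes 3 member genes and 3 probes were lower. Asking for signal well above background on all 4 arrays put the MMP median at 0.43, over fewer genes. With the dye as a second coefficient 27 genes and 44 probes were higher and 7 genes lower, and the TIMP median was -0.0801, as with either averaging of dye-swap pairs, since Timp3 could not be fitted there. The methods' t-test, with Benjamini-Hochberg adjustment, called 3 genes and 4 probes lower. Leaving out each array in turn gave 14 to 17 genes higher, 2 to 3 genes lower and 2 to 3 probes lower, with log2 ratios of -0.289 to 0.0686 for Timp4, positive without replicate 1 or 2 (0.00142), and of -0.0951 to 0.0168 for Adam10, positive without replicate 3 or 4 (0.000618), none of them past the test. Except where named, the cause was not tested. The share of all probes called was not computed under the alternatives, so a shift in these counts cannot be told apart from a shift over all probes. Both genotypes lie on each array, so each ratio is within 1 array and the test already pairs the genotypes by array. No pairing beyond this was possible, because the arrays form a single group. The lowest signals well above background were 25.2 to 31.9 by array and channel.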
